A study of Mus musculus with 8 samples.

Results

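Interferon-stimulated genes (ISGs) were followed across control and ansamitocin-P3-treated bone marrow-derived dendritic cells (BMDCs). The set holds 39 ISGs chosen by name, covering genes induced by type I and type II interferon and leaving out the IRF family. All 39 were found among the 23356 genes of the deposited table. At least 1 FPKM in 1 or more groups was reached by 37 of them, against 11397 genes in the table as a whole. FPKM is the number of sequenced fragments corrected for transcript length and library size, so levels of different genes can be set side by side. *Mx2* and *Ifit3* stayed under the limit. The highest of their 4 values was 0.389 FPKM for *Mx2* and 0.513 for *Ifit3*, and the members just above the limit were *Ifit1* (1.44), *Ifit2* (1.55) and *Rsad2* (1.79).

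Type I interferons bind IFNAR1 and IFNAR2 and activate ISGF3, a complex that holds STAT2 and IRF9 and binds the interferon-stimulated response element (ISRE). Interferon-γ acts through its own receptor and the gamma-activated site (GAS). In DCs the products of these genes sense viral nucleic acid, block viral RNA and budding, attack pathogen vacuoles and tune the signal itself, and a basal level is kept without infection. GEF-H1, encoded by *Arhgef2*, is a RhoA exchange factor held on microtubules, and ansamitocin-P3 is a maytansinoid that binds tubulin and destabilizes them.

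RNA-seq covered 8 libraries in 4 groups, namely WT and Arhgef2-/- (GEF-H1-/-) BMDCs, each left untreated or exposed to 100 nM ansamitocin-P3, all for 5 h. Both genotypes were on the C57BL/6 background per the labels (C57BL/6N in the methods of the study), and all marrow was grown with GM-CSF and IL-4. The deposited value is 1 FPKM per gene and group, into which Cuffdiff merged the 2 libraries of the group, with a 95% confidence interval. Single libraries are therefore not resolved, no difference below was tested against the spread between duplicates, and p-values are not given.

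*Arhgef2* (chromosome 3, 88616207 to 88648052, GRCm38) was at 42.3 FPKM (34.5 to 50.0) in untreated WT DCs and at 4.59 (3.54 to 5.63) in untreated GEF-H1-/- DCs, and the treated groups kept this order. All 9 dendritic cell markers were found, with *Itgax* at 102 to 175 FPKM and *H2-Aa* at 753 to 987 FPKM over the groups, while *Flt3* (1.07 to 2.63) and *Cd209a* (0.808 to 3.30) were low. Markers listed for other cells were also found, with *S100a8* (neutrophil list) at 10856 to 23110 FPKM and *Mcpt8* (mast cell and basophil list) at 63.5 to 97.0. Which cells these transcripts came from was not tested. The median log2 change of all genes lay between -0.026 and 0.0010 in the 4 pairwise comparisons, so no overall shift had to be taken off.

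Promoter sequences show which interferon elements these genes carry. RefSeq windows of 300 bases on GRCm38.p6, 250 before and 50 after the start site, were found for 30 of the 39 members, 35 windows in all. No window was matched for *Mx1*, *Mx2*, *Oas2*, *Usp18*, *Dhx58*, *Zbp1*, *Parp9*, *Parp14* or *Rtp4*. The ISRE core, GAAA and again GAAA with any 2 bases between them, on either strand, was present in 20 of the 35 windows (57.1%), against 3.44% of all 32851 windows. The GAS core TTCNNNGAA, which reads the same on both strands, was present in 10 (28.6%), against 8.30% of all windows. Both cores were present in 7 windows and overlapped each other in 2. An NF-κB core (GGGA and TTCC with any 2 bases between them, either strand) was in 5 windows (14.3% against 1.47%), and an AP-1 core (TGANTCA, the same on both strands) in 9 (25.7% against 7.81%). The 250 bases before the start site are printed for 4 genes that differ in how they behaved, *Isg15* and *Gbp2*, which were lower without GEF-H1 (*Isg15* by intervals in treated cells only), and *Gbp5* and *Gbp7*, which fell with the drug, *Gbp7* being lower by intervals in untreated GEF-H1-/- DCs as well. Capitals mark ISRE and GAS cores.
Isg15 (chr4:156200819-156201068, minus strand): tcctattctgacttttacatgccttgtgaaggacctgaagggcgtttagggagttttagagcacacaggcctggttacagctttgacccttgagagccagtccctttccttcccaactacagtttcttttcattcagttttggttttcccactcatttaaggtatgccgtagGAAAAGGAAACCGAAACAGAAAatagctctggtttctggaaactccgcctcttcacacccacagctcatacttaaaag
Gbp2 (chr3:142620413-142620662, plus strand): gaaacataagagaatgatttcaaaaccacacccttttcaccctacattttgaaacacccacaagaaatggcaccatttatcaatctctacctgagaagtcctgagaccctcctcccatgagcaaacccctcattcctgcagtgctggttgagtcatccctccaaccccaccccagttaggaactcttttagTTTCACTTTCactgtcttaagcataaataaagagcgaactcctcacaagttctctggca
Gbp5 (chr3:142496684-142496933, plus strand): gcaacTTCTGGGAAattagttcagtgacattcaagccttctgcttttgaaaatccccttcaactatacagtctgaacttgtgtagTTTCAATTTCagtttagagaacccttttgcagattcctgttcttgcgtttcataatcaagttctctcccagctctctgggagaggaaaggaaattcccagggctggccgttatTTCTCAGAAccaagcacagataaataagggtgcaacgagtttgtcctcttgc
Gbp7 (chr3:142530086-142530335, plus strand): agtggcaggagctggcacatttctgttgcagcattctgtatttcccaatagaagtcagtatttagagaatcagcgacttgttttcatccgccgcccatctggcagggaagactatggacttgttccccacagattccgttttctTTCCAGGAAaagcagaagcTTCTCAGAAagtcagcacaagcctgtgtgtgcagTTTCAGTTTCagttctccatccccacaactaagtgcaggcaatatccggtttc
In *Isg15* 3 ISRE cores overlap in 1 run, and *Gbp2* has a single ISRE core and no GAS core. *Gbp5* has 1 ISRE and 2 GAS cores, and so does *Gbp7*. A match is a description of letters and not evidence of binding.

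The level of the members in untreated WT DCs ran from 0.340 to 272 FPKM, with a median of 12.5 FPKM over all 39, and 21 members were at 10 FPKM or more. *Ifitm3* had the highest level, followed by *Bst2*, *Lgals3bp*, *Zbp1* and *Ifi35* when the 4 groups were averaged. *Bst2*, tetherin, which holds budding virions at the membrane, was at 115 FPKM (84.1 to 136) in untreated WT, 109 (77.0 to 124) in treated WT, 92.5 (67.1 to 109) in untreated GEF-H1-/- and 86.7 (62.6 to 101) in treated GEF-H1-/- DCs. Its 4 intervals overlapped. *Lgals3bp*, which encodes a secreted galectin-binding glycoprotein, was at 88.9 FPKM (72.0 to 106), 73.4 (58.5 to 88.3), 77.1 (62.4 to 91.7) and 69.0 (55.7 to 82.2) in the same order. *Ifi35*, a partner of NMI, was at 43.9 (34.9 to 52.6), 45.1 (35.7 to 54.4), 46.5 (37.0 to 55.9) and 43.4 (34.5 to 52.1) FPKM. The 4 intervals of *Lgals3bp* and those of *Ifi35* overlapped as well. *Ifi35* was nearly level, while *Bst2* and *Lgals3bp* were highest in untreated WT and lowest in treated GEF-H1-/- DCs. At the other end lay *Ifit1*, *Ifit2*, *Ifit3*, *Rsad2* and *Mx2*, genes that are among the strongest responders to type I interferon. In the order used above, *Ifit1* was at 1.31, 1.44, 0.702 and 0.864 FPKM, *Ifit2* at 1.16, 1.55, 0.761 and 1.26 FPKM, and *Mx2* at 0.340, 0.219, 0.379 and 0.389 FPKM. Each of these 3 genes had overlapping intervals for treated and untreated cells of either genotype.

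**Figure D1:**
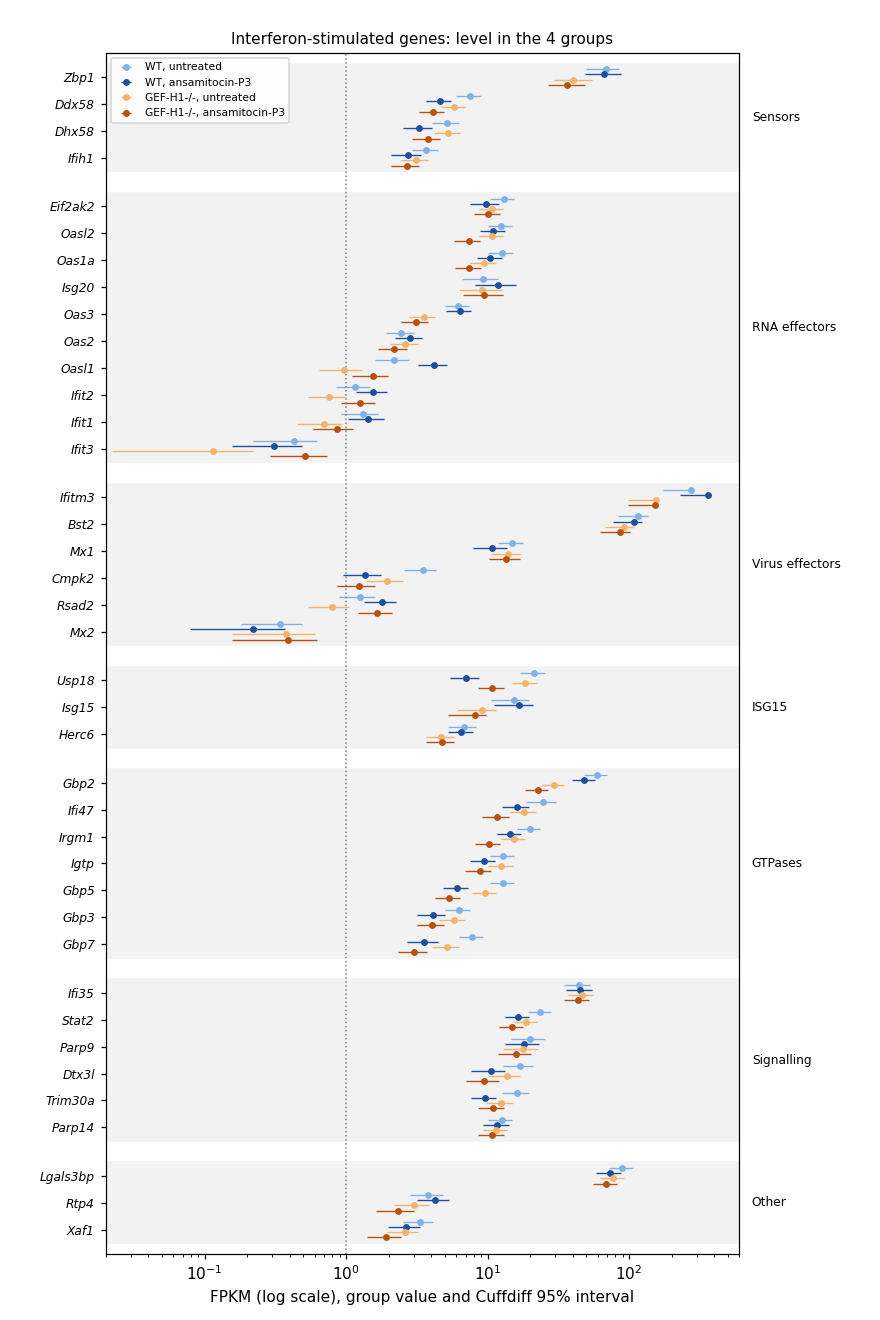
FPKM of the 39 ISGs (log axis) in the 4 groups, grouped by role, with points for the group values and bars for the Cuffdiff 95% intervals. The dotted line marks 1 FPKM, which *Mx2* and *Ifit3* do not reach, and *Ifitm3* is highest, from 153 to 362 FPKM.

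To ask whether microtubule destabilization raised ISGs, treated and untreated cells were compared within each genotype. It did not raise them as a group at 5 h. The values used are log2 ratios of FPKM + 1, which understate changes of low genes, and a change was called when it was over 1 or under -1. A second call was that the 2 Cuffdiff intervals did not overlap, and "rose" and "fell" are used only where 1 of these calls was made. The SD after each log2 value is derived from the widths of the intervals and does not hold the spread between duplicates. In WT DCs 0 of 37 members were over 1, where 3.66% of all 11397 genes were, and 1 member, *Usp18*, was under -1, where 1.28% of all genes were. By intervals, 7 members fell (7.58% of all genes) and 1 rose (9.19%). Some decrease, of any size, was seen for 26 of 37 members, against 49.6% of all genes, and the median log2 change was -0.25. At a limit of 0.5, 10 members were lower (11.0% of all genes) and 1 higher (12.4%). In GEF-H1-/- DCs no member was over 1 (0.807% of all genes) or under -1 (0.272%). By intervals 5 members fell there, where 0.956% of all genes did, and 1 rose, where 2.75% did. A lower value after the drug was seen for 31 of 37 (52.3% of all genes), with a median of -0.18. At a limit of 0.5, 5 were lower (1.94% of all genes) and 1 higher (3.85%). In both genotypes at once 25 of the 37 members were lower, against 38.9% of all genes, and 3 fell by intervals, *Usp18*, *Gbp5* and *Gbp7*, against 0.86%. Higher in both genotypes, by any amount, were 5 members, *Ifit1*, *Ifit2*, *Oasl1*, *Rsad2* and *Isg20*, a count that stands without a share of all genes.

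**Figure D2:**
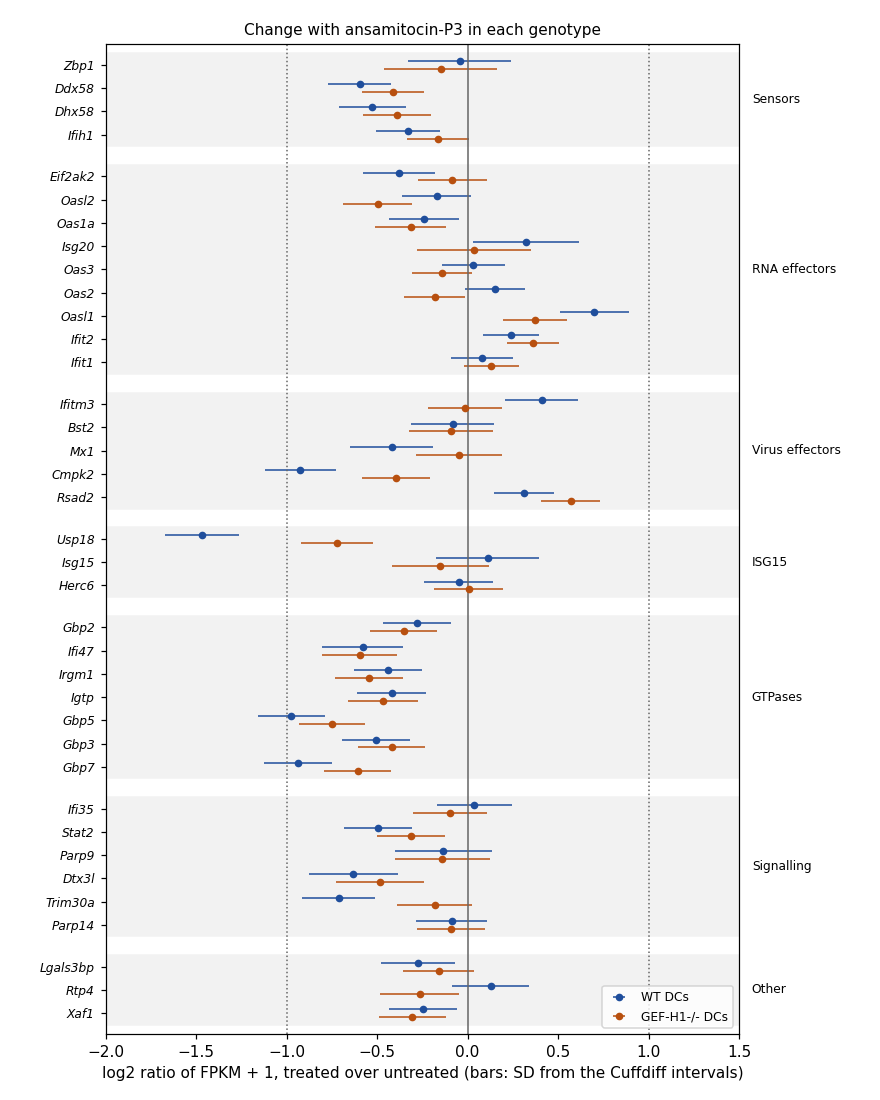
Log2 ratio of FPKM + 1, treated over untreated, for the 37 members with at least 1 FPKM, in WT and GEF-H1-/- DCs, with bars for the SD from the Cuffdiff intervals and dotted lines at -1 and 1. *Usp18* in WT DCs is the single point past -1, none is past 1, and all 7 GTPases are below 0 in both genotypes.

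The interferon-inducible GTPases were lower with the drug in both genotypes. This group takes in *Irgm1*, *Igtp* and *Ifi47*, immunity-related GTPases, and the guanylate-binding proteins *Gbp2*, *Gbp3*, *Gbp5* and *Gbp7*, which act at pathogen-containing vacuoles and are classical interferon-γ targets. All 7 were lower after ansamitocin-P3 in WT DCs (log2 changes of -0.97 to -0.28, median -0.51) and all 7 in GEF-H1-/- DCs (-0.75 to -0.35, median -0.54). Of all genes 49.6% were lower in WT and 52.3% in GEF-H1-/- DCs. By intervals 2 of the 7 fell in WT (7.58% of all genes) and 4 in GEF-H1-/- DCs (0.956%). *Gbp5* (chromosome 3, 142496934 to 142522344), which promotes inflammasome assembly, was at 12.8 FPKM (10.4 to 15.3) in untreated and at 6.04 (4.81 to 7.27) in treated WT DCs, and at 9.64 (7.79 to 11.5) and 5.33 (4.22 to 6.44) in GEF-H1-/- DCs. Its log2 changes were -0.97 ± 0.18 (WT) and -0.75 ± 0.18 (GEF-H1-/-). *Gbp7* (142530338 to 142550083) was at 7.77 FPKM (6.29 to 9.25) untreated and 3.58 (2.70 to 4.47) treated in WT, and at 5.16 (4.04 to 6.27) untreated and 3.04 (2.33 to 3.75) treated in GEF-H1-/- DCs. In both genes the treated values of the 2 genotypes overlapped. *Irgm1*, a regulator of autophagy and of the other GTPases, had WT values of 19.9 FPKM (16.1 to 23.7) untreated and 14.4 (11.6 to 17.2) treated, with overlap. Its GEF-H1-/- values of 15.4 (12.5 to 18.3) and 10.2 (8.22 to 12.3) did not overlap. *Ifi47* likewise overlapped in WT, at 24.6 FPKM (18.8 to 30.5) untreated and 16.1 (12.7 to 19.6) treated, and fell without GEF-H1, at 18.1 (14.4 to 21.9) and 11.7 (9.13 to 14.2). The WT change minus the GEF-H1-/- change was smaller than its SD in both genes, at 0.10 ± 0.27 for *Irgm1* and 0.02 ± 0.30 for *Ifi47*. *Gbp3* (-0.51 log2 for WT and -0.42 for GEF-H1-/-), *Igtp* (-0.42 and -0.47) and *Gbp2* (-0.28 and -0.35) had overlapping intervals. The ISRE core was in the promoter window of 6 of these 7 genes and the GAS core in 3.

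ISG15 is a ubiquitin-like protein that is attached to other proteins, HERC6 is a ligase for it in mice, and USP18 removes it and also silences the type I receptor at IFNAR2. *Usp18* (chromosome 6, 121245906 to 121270917) had the largest fall of the set. It was at 21.3 FPKM (17.0 to 25.5) in untreated and 7.05 (5.45 to 8.63) in treated WT DCs, a level of 33.2% of untreated cells and a log2 change of -1.47 ± 0.20. GEF-H1-/- DCs had 18.5 (14.8 to 22.2) untreated and 10.8 (8.58 to 13.1) treated, or 58.5% (log2 -0.72 ± 0.20). The difference between these changes, -0.75 ± 0.28, was under the limit of 1, and the treated intervals of the 2 genotypes just overlapped. *Isg15* was at 15.4 (10.5 to 19.6) and 16.7 (11.2 to 20.8) FPKM in WT and at 9.17 (6.09 to 11.5) and 8.15 (5.27 to 9.79) FPKM in GEF-H1-/- DCs, with overlap of untreated and treated cells in each. *Herc6* was at 6.80 and 6.54 FPKM in WT and at 4.73 and 4.75 FPKM in GEF-H1-/- DCs. The gene for the protease and brake thus moved with the drug where the genes for the modifier and its ligase did not pass either call.

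Among the sensors of viral nucleic acid, all 4 members were lower after the drug in WT (49.6% of all genes) and in GEF-H1-/- DCs (52.3%). By intervals 2 fell in WT DCs (7.58% of all genes). *Ddx58*, which encodes the RNA helicase RIG-I, fell in WT DCs, at 7.46 FPKM (5.99 to 8.94) untreated and 4.59 (3.68 to 5.51) treated, with GEF-H1-/- values of 5.81 (4.67 to 6.94) and 4.10 (3.27 to 4.93). *Dhx58*, for the related LGP2, fell in WT DCs too, at 5.18 FPKM (4.06 to 6.28) and 3.29 (2.52 to 4.04), with GEF-H1-/- values of 5.27 (4.15 to 6.41) and 3.79 (2.94 to 4.65). The intervals overlapped in GEF-H1-/- DCs for both genes. *Ifih1*, which encodes MDA5, had log2 changes of -0.33 ± 0.17 and -0.16 ± 0.17. *Zbp1*, a sensor of Z-form nucleic acid that can start necroptosis, was far more abundant and nearly level after the drug, at 68.2 (49.9 to 84.8) and 66.2 (48.6 to 88.1) FPKM in WT and at 40.4 (29.4 to 54.4) and 36.4 (27.0 to 49.2) FPKM in GEF-H1-/- DCs.

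Of the effectors that bind viral RNA or stop translation, 3 of 9 tested members were lower after the drug in WT DCs (49.6% of all genes), and the median log2 change was 0.08, with -0.08 in GEF-H1-/- DCs. By intervals 1 of the 9 rose in WT DCs (9.19% of all genes), *Oasl1*, an oligoadenylate synthetase-like protein that restrains translation of IRF7. Untreated WT DCs had 2.19 FPKM (1.61 to 2.77) and treated ones 4.18 (3.21 to 5.13), which is 0.70 ± 0.19 on the log2 scale. Without GEF-H1 it was at 0.965 (0.647 to 1.29) and 1.55 (1.11 to 1.98) FPKM, with overlap. *Oasl2*, its neighbour on chromosome 5, was not raised, at 12.5 and 11.0 FPKM in WT and 10.8 and 7.36 FPKM in GEF-H1-/- DCs. The oligoadenylate synthetases, which activate RNase L, did not pass either call after the drug, with log2 changes of -0.24 and -0.32 for *Oas1a*, 0.15 and -0.18 for *Oas2*, and 0.03 and -0.14 for *Oas3* (WT first). Neither did *Eif2ak2*, which encodes the kinase PKR (-0.38 and -0.08), nor the exonuclease gene *Isg20* (0.32 and 0.03). *Ifit3*, under the limit of 1 FPKM, was at 0.427 (0.222 to 0.621) and 0.311 (0.155 to 0.488) FPKM in WT and at 0.116 (0.0222 to 0.222) and 0.513 (0.288 to 0.732) FPKM in GEF-H1-/- DCs, where the last 2 intervals did not overlap.

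*Rsad2* and *Cmpk2* are neighbours on chromosome 12 and are often induced together, *Rsad2* for viperin, which makes a chain-terminating nucleotide, and *Cmpk2* for a kinase that supplies its substrate. Here only *Cmpk2* passed a call in WT DCs and only *Rsad2* in GEF-H1-/- DCs, in opposite directions. *Rsad2* (26442743 to 26456452) was at 1.25 (0.890 to 1.60) and 1.79 (1.35 to 2.25) FPKM in WT DCs, with overlap, and rose in GEF-H1-/- DCs, at 0.791 (0.538 to 1.04) and 1.66 (1.21 to 2.11) FPKM. *Cmpk2* (26469215 to 26479837) fell in WT DCs, at 3.48 (2.57 to 4.35) and 1.36 (0.945 to 1.78) FPKM, and was at 1.95 (1.38 to 2.51) and 1.24 (0.861 to 1.61) FPKM in GEF-H1-/- DCs. The log2 changes were 0.31 ± 0.17 and 0.57 ± 0.16 for *Rsad2* and -0.92 ± 0.20 and -0.40 ± 0.19 for *Cmpk2*. Both genes lie near 1 FPKM, and with 0.1 FPKM added in place of 1 these values were 0.98 for *Rsad2* in GEF-H1-/- and -1.29 for *Cmpk2* in WT DCs. *Mx1*, a dynamin-like GTPase whose gene is defective in most laboratory strains, differed by -0.42 ± 0.23 (WT) and -0.05 ± 0.24 (GEF-H1-/-) on the log2 scale.

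Of the 6 signalling members 5 were lower after the drug in WT DCs (49.6% of all genes) and all 6 in GEF-H1-/- DCs (52.3%). By intervals 1 fell in WT DCs (7.58% of all genes), *Trim30a*, a TRIM protein that dampens TLR signalling. WT DCs had 16.2 FPKM (12.7 to 19.8) untreated and 9.52 (7.61 to 11.4) treated, and GEF-H1-/- DCs 12.5 (9.75 to 15.1) and 10.8 (8.54 to 13.1). *Stat2*, the ISGF3 subunit specific to type I and III signals, was at 23.6 (19.2 to 28.1) and 16.5 (13.3 to 19.6) FPKM in WT and 18.8 (15.3 to 22.4) and 15.0 (12.1 to 17.9) FPKM in GEF-H1-/- DCs. The WT intervals of *Stat2* overlapped only at their edges. *Parp9* and *Dtx3l* encode partners in 1 ADP-ribosylation and ubiquitin ligase complex and are listed at the same merged locus on chromosome 16. How well reads of any overlapping part were assigned in these stranded libraries was not tested. *Dtx3l* had log2 changes of -0.63 ± 0.25 and -0.48 ± 0.24 and *Parp9* of -0.13 ± 0.27 and -0.14 ± 0.26, while *Parp14* next to them was at -0.09 in both genotypes. *Rtp4* was at 3.82 (2.82 to 4.82) and 4.26 (3.18 to 5.32) FPKM in WT and at 3.01 (2.17 to 3.83) and 2.34 (1.63 to 3.04) FPKM in GEF-H1-/- DCs. Neither *Rtp4* (0.13 and -0.26) nor *Xaf1* (-0.25 and -0.30) passed a call with the drug.

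Subtracting the GEF-H1-/- change from the WT change gave a value past 1 or -1 for 0 of 37 members, where 1.36% of all genes were over 1 and 0.535% under -1. Its median over the members was 0.0026, with 18 of 37 below 0 (48.4% of all genes), 3 under -0.5 (5.24%) and 0 over 0.5 (6.73%). The values furthest from 0 among the 37 were those of *Usp18*, *Cmpk2* (-0.53 ± 0.27) and *Trim30a* (-0.53 ± 0.29), all 3 with the larger fall in WT DCs. On the other side lay *Ifitm3* (0.42 ± 0.29) and *Rtp4* (0.39 ± 0.31).

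Genotypes were then compared at the same treatment, to ask whether ISGs depend on GEF-H1 without or with the drug. The members were lower in GEF-H1-/- DCs, mostly by a small amount. In untreated cells 34 of 37 were lower than in WT, against 52.1% of all genes, with a median log2 difference of -0.31. None was under -1 (0.614% of all genes) or over 1 (1.26%). By intervals 6 members were lower, where 1.88% of all genes were, and 0 were higher (2.86%). At a limit of 0.5, 8 were lower (2.98%) and 0 higher (4.19%). After ansamitocin-P3 32 of 37 were lower (52.9% of all genes), with a median of -0.18. Here 3 were under -1, where 2.06% of all genes were, and 0 over 1 (2.0%). By intervals 6 were lower (6.73% of all genes) and 0 higher (7.02%). At a limit of 0.5, 8 were lower (9.75%) and 1 higher (9.6%). Lower in GEF-H1-/- DCs in both states were 30 of the 37 members, against 37.0% of all genes, and by intervals 4 members, *Oas3*, *Oasl1*, *Gbp2* and *Ifitm3*, against 1.27%. *Ifit1* is counted as lower here and reached the limit of 1 FPKM only in WT DCs. Without that limit, 89.7% of all 39 members were lower in untreated and 82.1% in treated GEF-H1-/- DCs, against 91.9% and 86.5% of the 37. These comparisons use the same 4 group values as those of the drug, so the 2 sets of results are not independent. The highest value of 25 of the 37 members was that of untreated WT DCs. This count stands without a share of all genes and is not read as particular to the members.

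**Figure D3:**
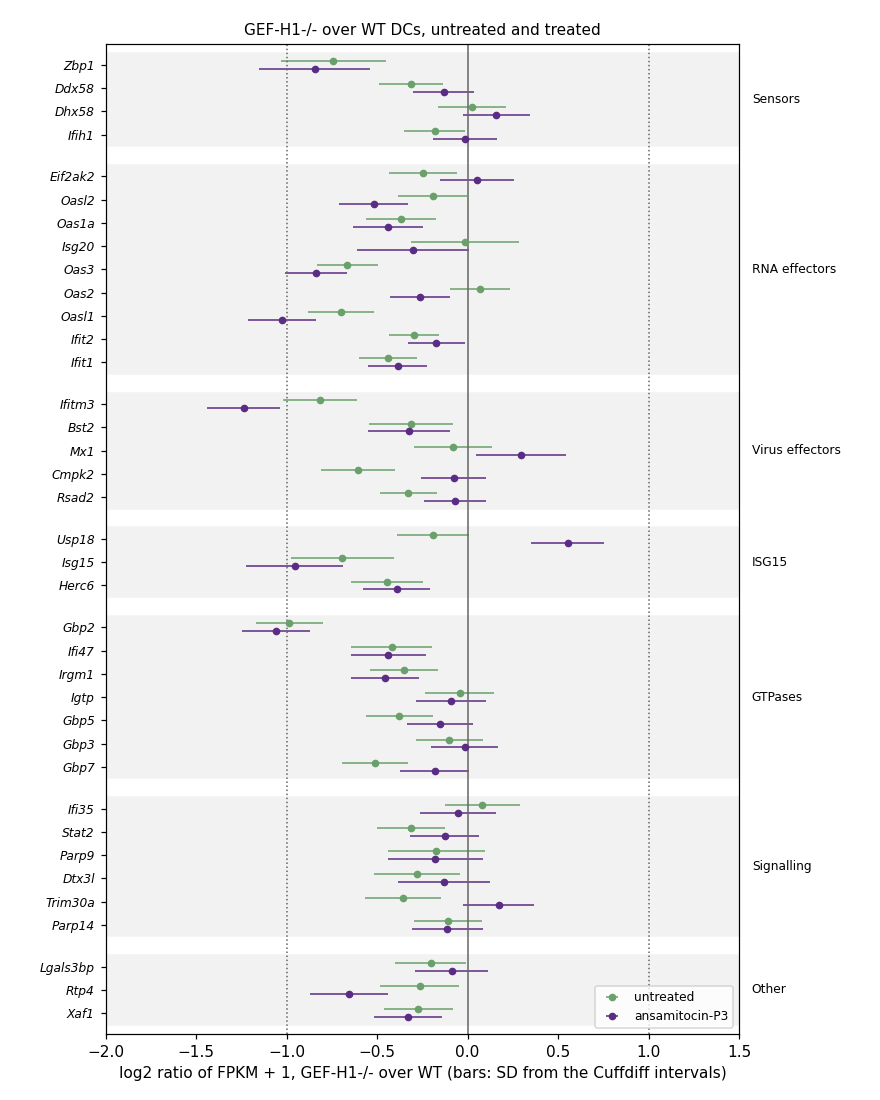
Log2 ratio of FPKM + 1, GEF-H1-/- over WT, for the 37 members in untreated and treated cells, with bars for the SD from the Cuffdiff intervals and dotted lines at -1 and 1. Most points lie left of 0, and *Oasl1*, *Gbp2* and *Ifitm3* pass -1 in treated cells.

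*Ifitm3* (chromosome 7, 141009590 to 141010744), which blocks virus entry from endosomes, was at 272 FPKM (175 to 280) in untreated and 362 (230 to 369) in treated WT DCs, and GEF-H1-/- DCs had 154 (99.1 to 160) and 153 (98.2 to 159). GEF-H1-/- DCs held 56.7% of the WT level untreated and 42.3% treated, log2 differences of -0.82 ± 0.20 and -1.24 ± 0.20. The FPKM lies close to the upper bound of its interval in each group. *Gbp2* (chromosome 3, 142620663 to 142638008) was at 58.9 (48.2 to 69.7) and 48.3 (39.5 to 57.2) FPKM in WT and at 29.3 (23.9 to 34.6) and 22.7 (18.5 to 26.9) FPKM in GEF-H1-/- DCs, 49.7% and 47.0% of WT. Both genes separated the genotypes whether or not the drug was present. The other guanylate-binding members of the cluster on chromosome 3 had smaller untreated differences, of -0.51 ± 0.18 for *Gbp7*, whose intervals did not overlap, -0.38 ± 0.18 for *Gbp5* and -0.10 ± 0.19 for *Gbp3*. *Arhgef2* lies on the same chromosome, 53.8 Mb from *Gbp5*.

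*Oasl1* in GEF-H1-/- DCs was at 44.0% of the WT level untreated and 37.0% treated, log2 differences of -0.70 ± 0.18 and -1.03 ± 0.19. *Oas3*, the long oligoadenylate synthetase, was at 6.19 (4.99 to 7.39) and 6.35 (5.09 to 7.61) FPKM in WT against 3.54 (2.81 to 4.26) and 3.11 (2.45 to 3.77) FPKM in GEF-H1-/- DCs. Drug-treated WT DCs thus had more than untreated or treated GEF-H1-/- DCs for both genes, without overlap. *Cmpk2* was lower by intervals in untreated GEF-H1-/- DCs (log2 difference -0.60 ± 0.20) and nearly level in treated cells (-0.08 ± 0.18). *Isg15* and *Rtp4*, which encodes a receptor-transporting protein, were lower by intervals after the drug, with log2 differences of -0.96 ± 0.27 and -0.66 ± 0.22. *Zbp1* had differences of similar size (-0.74 ± 0.29 and -0.85 ± 0.31) with intervals that overlapped. Few members ran the other way, and *Usp18* was the highest of them, at 0.55 ± 0.20 in treated cells with intervals that overlapped.

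**Figure D4:**
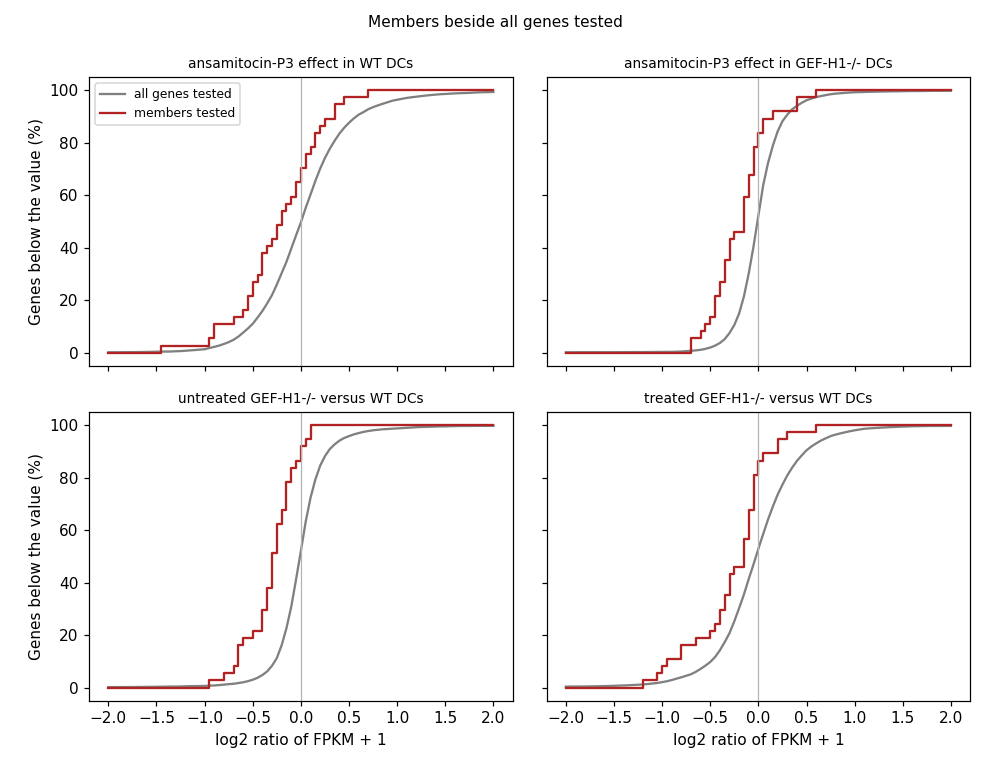
Share of genes (%) below each log2 ratio of FPKM + 1, for the 37 members and all 11397 genes tested, in the 4 pairwise comparisons. The members' curve lies left of that of all genes over most of the range in each panel, and at 0 in untreated cells it stands at 91.9%.

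All 18 tested members with an ISRE core in their promoter window were lower in untreated GEF-H1-/- DCs (median -0.35). So were 10 of 11 with a window that lacked it (median -0.28), against 52.1% of all genes. The 18 include *Ifit1*, which reached 1 FPKM only in WT DCs. With the drug the medians were -0.35 with and -0.17 without the core in WT, and -0.25 and -0.16 in GEF-H1-/- DCs. The groups overlapped throughout, with WT changes from -0.97 to 0.41 in members with the core and from -0.92 to 0.70 in those without it.

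Markers of other cells differed between the genotypes, and in bulk RNA fewer cells of a type and less RNA per cell cannot be told apart. Of all genes 2.86% were higher and 1.88% lower by intervals in untreated GEF-H1-/- against WT DCs, and 7.02% and 6.73% in treated cells. Some decrease, of any size, was seen for 52.1% (untreated) and 52.9% (treated) of all genes, and a value under -1 for 0.614% and 2.06%. Of the 9 dendritic cell markers, 3 were higher and 6 lower in GEF-H1-/- DCs in each state. By intervals 1 was higher in untreated and 2 in treated cells, and 0 were lower. Their sum was 5635 and 7314 FPKM in WT and 4735 and 5208 FPKM in GEF-H1-/- DCs. Most of it came from the highest marker, at 3676 and 4935 FPKM in WT and 3073 and 3331 FPKM in GEF-H1-/- DCs. The median level ran the other way, at 102 and 132 FPKM in WT and 129 and 175 FPKM in GEF-H1-/- DCs. All 7 mast cell and basophil markers were higher in GEF-H1-/- DCs, 5 of them by intervals in untreated cells, with a summed level of 198 and 203 FPKM in WT and 384 and 368 FPKM in GEF-H1-/- DCs. Of 7 neutrophil markers found, 2 were higher and 3 lower by intervals in untreated GEF-H1-/- DCs, and 1 was higher and 3 lower in treated ones. Their log2 differences ran from -3.57 to 1.23 in untreated and from -3.37 to 1.40 in treated cells. The sum was 32041 and 37907 FPKM in WT and 21723 and 22148 FPKM in GEF-H1-/- DCs. Much of it came from the highest marker, at 19401 and 23110 FPKM in WT and 10856 and 11199 FPKM in GEF-H1-/- DCs. The 6 plasmacytoid DC markers summed to 12.8 and 10.4 FPKM in WT and 7.21 and 7.39 FPKM in GEF-H1-/- DCs, with *Siglech*, which defines them, at 0.0593 to 0.101 FPKM. Of the 3 that reached 1 FPKM, *Ly6d* and *Pacsin1* were under -1 and lower by intervals in untreated GEF-H1-/- DCs and *Pacsin1* also in treated ones, while *Tcf4*, at 4.75 to 5.89 FPKM, made up much of the sum. The 7 lymphocyte markers summed to 15.2 and 13.5 FPKM in WT and to 10.8 and 8.45 FPKM in GEF-H1-/- DCs, and all 5 that reached 1 FPKM were lower in GEF-H1-/- DCs in both states. The 6 macrophage markers found summed to 223 to 254 FPKM over the groups but moved apart. By intervals 1 was higher and 0 lower in untreated GEF-H1-/- against WT DCs, and 1 was higher (*Mertk*) and 1 lower (*C5ar1*) in treated cells. The part of these cells in the ISG levels was not tested.

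The pathway upstream was read from lists of ligands, receptors and signalling genes. Of 19 interferon ligand genes found, 18 were under 1 FPKM in every group. *Ifnb1* was listed at 0.0947 and 0.0688 FPKM in WT and at 0 in both GEF-H1-/- groups. *Ifng*, chosen for mention after its values were seen, was at 2.17, 1.91, 1.81 and 1.87 FPKM, nearly level. All counts of calls in these lists stand beside 9.19% of all genes higher and 7.58% lower by intervals in WT DCs, and 2.75% and 0.956% in GEF-H1-/- DCs. By intervals 1 of 6 receptor genes rose in WT DCs, *Il10rb*, the chain shared by interferon-λ and IL-10, from 30.6 to 45.8 FPKM. Of 6 JAK-STAT genes 1 rose there, *Stat3*, from 40.4 to 60.8 FPKM. *Irf9* was at 21.8 and 20.8 FPKM in WT and at 20.8 and 18.4 FPKM in GEF-H1-/- DCs. Neither *Irf9* nor *Stat2* passed a call with the drug.

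Among 12 genes that lead to interferon production, 2 rose and 2 fell by intervals in WT DCs, and 2 rose in GEF-H1-/- DCs. *Tank*, which links TRAF3 to TBK1, rose in both genotypes, from 29.0 to 72.8 FPKM (WT) and from 26.3 to 48.3 FPKM (GEF-H1-/-), as did *Ticam1*, the TRIF adaptor, from 13.2 to 29.9 and from 13.2 to 22.9 FPKM. *Mb21d1*, which encodes cGAS, fell from 7.10 to 4.05 FPKM in WT and stayed at 6.63 and 6.61 FPKM in GEF-H1-/- DCs. *Ticam2*, the TRAM adaptor, fell from 9.47 to 4.40 FPKM in WT and was at 6.75 and 4.58 FPKM in GEF-H1-/- DCs. *Irf7*, the amplifier of type I interferon, was higher in GEF-H1-/- DCs in level (43.1 and 39.9 against 32.9 and 33.0 FPKM) with overlapping intervals, unlike most members. Of 8 negative regulators, 1 rose and 2 fell by intervals in WT DCs and none in GEF-H1-/- DCs. *Socs3* rose from 10.1 to 26.1 FPKM and *Ptpn6*, for the phosphatase SHP-1, fell from 169 to 101 FPKM. The call for *Socs1* rests on a small change, from 179 to 156 FPKM, and its FPKM lay outside its own interval in 1 group.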

How the data were processed

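The authors made stranded polyadenylated RNA libraries, sequenced paired ends and computed the deposited FPKM with Cuffdiff (1.05 in the submitters' processing notes, which name mm10). The aligner and annotation of this table are not given in the sources used here. Columns were matched to groups by name, those without a genotype by elimination. Genes with a Cuffdiff status other than OK (107) or under 1 FPKM in all 4 groups were left out, and log2 ratios of FPKM + 1 were computed for the other 11397 (pandas 2.3.3). The SD of a ratio was taken from the widths of the 95% intervals. Depth is unknown, because FPKM keeps no fragment number. Among 3020 to 3116 genes under 0.3 FPKM, at most 30 shared a step relative to untreated WT DCs. Members of similar sequence (*Ifitm*, *Gbp*, *Oas*, *Ifit*) can share short reads. Levels in all 4 groups are given for members called in a pairwise comparison or among the 5 highest, and the other members are accounted for by levels or changes. A gene of the pathway lists is not reported here. Members and lists were chosen with earlier results of these data known. Alternatives were other pseudocounts, filters, thresholds and scaling, and leaving out tandem families. Promoters came from RefSeq (GRCm38.p6).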

Additional observations from a re-analysis of the deposited data

How the results depend on the processing

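The direction of the median log2 change held under every alternative in the 4 pairwise comparisons, and the share of members below 0 stayed within 1.5 times of the value given. The median of the difference between genotypes in the drug effect, 0.0026, changed sign. It was -0.011 with 5 FPKM added and -0.053 without the filter. Rescaling by the median ratio over genes used factors from 0.995 to 1.01. Counts past the limit were small and moved with it. With 0.1 FPKM added, 4 members were under -1 after the drug in WT DCs, 2 in untreated GEF-H1-/- against WT DCs and 5 in treated cells, and with 5 FPKM added the last was 1. These counts stand without a share of all genes, because the shares given above are for FPKM + 1 only. At a limit of 0.5, 10 were lower and 1 higher after the drug in WT, 5 lower and 1 higher in GEF-H1-/- DCs, 8 lower between untreated genotypes, 8 lower and 1 higher between treated ones, and 3 lower in the difference between genotypes. Without the 19 members of tandem families, 0 passed -1 between treated genotypes. The 3 that had passed, *Oasl1*, *Gbp2* and *Ifitm3*, are all among the 19, so this outcome follows from the list and is no check. No paired analysis was possible because the table holds 1 merged value per group, and for the same reason no library was left out.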

Other observations

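A further list of 46 ISGs outside the set, of which 43 reached 1 FPKM, had a median log2 change with the drug of -0.17 (WT) and -0.11 (GEF-H1-/-), and medians of -0.16 and -0.25 for GEF-H1-/- against WT in untreated and treated cells. Here, by intervals, 9 rose and 7 fell in WT DCs (9.19% and 7.58% of all genes), and 1 rose and 4 fell in GEF-H1-/- DCs (2.75% and 0.956%). The genes named from this list were chosen after their values were seen. *Helz2*, a nuclear receptor coactivator, rose in both genotypes, from 6.95 to 20.6 FPKM (WT) and from 6.12 to 23.0 FPKM (GEF-H1-/-). *Trim25*, the ubiquitin ligase for RIG-I, rose from 21.2 to 49.3 FPKM in WT and was at 21.6 and 24.2 in GEF-H1-/- DCs.

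Relatives of the members behaved alike in part. *Ifitm1* rose from 184 to 359 FPKM and *Ifitm2* from 181 to 312 in WT DCs, against 152 and 158 and 122 and 114 in GEF-H1-/- DCs. *Gbp4*, *Gbp8* and *Gbp9* fell by intervals in WT DCs, with log2 changes of -0.72, -0.77 and -0.96, and *Gbp4* and *Gbp9* in GEF-H1-/- DCs too (-0.52 and -0.70). *Ly6a*, which encodes Sca-1, was at 76.8 and 57.4 FPKM in WT and at 35.5 and 27.0 in GEF-H1-/- DCs. Of 5 interferon-inducible chemokines 3 reached 1 FPKM, and *Cxcl10* rose from 1.51 to 4.19 FPKM in WT and was at 0.991 and 1.68 in GEF-H1-/- DCs. Against WT, 2 of the 3 were lower in GEF-H1-/- DCs and 1 was higher in each state. The last had log2 differences of 1.06 untreated and 1.13 treated, with overlapping intervals.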
